A study of Homo sapiens with 8 samples.

Results

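In U2OS cells treated with Nutlin-3a, RFX7 chromatin immunoprecipitation gave 282 intervals that shared no base with any interval listed for the DMSO control. They made up 282 of the 304 rows of the Nutlin-3a list and 282 of the 517 rows of both lists together. The other 22 Nutlin-3a rows overlapped a DMSO row by at least 1 base and are called shared here. The DMSO list held 213 rows, of which 191 shared no base with a Nutlin-3a row. The members were selected on the authors' called positions alone, so the presence of these rows in one list and their absence from the other is the selection and not a result.

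U2OS is a human osteosarcoma cell line. All cells were of this 1 line and were kept for 24 h either with 10 µM Nutlin-3a, a small molecule that blocks the binding of MDM2 to p53 and so stabilises p53, or with its solvent DMSO. The labels give 8 samples in 4 groups of 2 replicates, namely RFX7 immunoprecipitates (3 µg of antibody each) and input DNA under both treatments. Each treatment is represented by 1 list of merged rows, so no row has a replicate value, no difference between treatments could be tested, and the read depth behind either list is unknown.

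RFX7 belongs to the regulatory factor X family, whose members bind a DNA element called the X-box through a winged-helix domain. The X-box is an imperfect inverted repeat whose arms resemble GTTGCC or GTTGCTA. In promoters of major histocompatibility complex class II genes, the related factor RFX5 binds an X-box beside a CCAAT element, the binding sequence of the trimeric factor NF-Y. RFX7 is known as a factor that acts downstream of p53 and promotes the expression of growth-restraining genes.

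Sequence stretches from promoters under these intervals are shown first, because letters were not used to choose the intervals. The stretches themselves were picked because they hold the letters searched. They come from RefSeq promoter windows of GRCh38.p14, which run from 250 bases before to 50 bases after an annotated start (300 bases). Of the 25 intervals ranked highest and those beside genes of the lists described further on, 12 had a window with a match to GTTGCTA or GTTGCCA, and 11 of these are shown as stretches of 100 bases, 5′ to 3′ on the strand of the gene. REV3L is the one not shown, since its stretch runs past the start into the transcript of a protein-coding gene. The LINC01778 stretch also passes its start, but that gene is noncoding. Capitals mark GTTGCTA, the variant GTTGCCA and the box CCAAT as read on either strand, so that TAGCAAC is GTTGCTA, and ATTGG is CCAAT, on the opposite strand. The first set, which holds GTTGCTA, comes from the highest-ranked intervals. Its members are the promoters of IP6K2 (chr3:48717277-48717376, minus strand), RAB40B (chr17:82698726-82698825, minus strand), the long noncoding RNA MAFTRR (chr16:79770673-79770772, minus strand), YPEL2 (chr17:59331554-59331653, plus strand), TOP2B (chr3:25665025-25665124, minus strand) and the long noncoding RNA LINC01778 (chr1:30824587-30824686, plus strand).
IP6K2: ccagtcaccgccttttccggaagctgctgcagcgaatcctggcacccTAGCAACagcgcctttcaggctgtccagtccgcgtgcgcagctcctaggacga
RAB40B: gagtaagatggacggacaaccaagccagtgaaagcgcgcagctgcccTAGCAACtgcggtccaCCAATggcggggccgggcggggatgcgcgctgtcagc
MAFTRR: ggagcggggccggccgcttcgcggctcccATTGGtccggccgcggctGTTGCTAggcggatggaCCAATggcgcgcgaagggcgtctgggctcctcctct
YPEL2: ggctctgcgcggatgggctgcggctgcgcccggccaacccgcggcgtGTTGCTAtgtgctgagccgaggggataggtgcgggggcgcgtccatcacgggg
TOP2B: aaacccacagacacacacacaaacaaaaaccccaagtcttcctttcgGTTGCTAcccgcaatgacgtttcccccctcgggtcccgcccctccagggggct
LINC01778: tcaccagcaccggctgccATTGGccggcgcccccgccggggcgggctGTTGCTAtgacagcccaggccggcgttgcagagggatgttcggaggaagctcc

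In RAB40B the GTTGCTA match and a CCAAT match lie a few bases apart, and in MAFTRR a CCAAT match lies on both sides of it. LINC01778 carries CCAAT on the opposite strand, upstream of the GTTGCTA match. The stretches from IP6K2, YPEL2 and TOP2B hold no CCAAT, although their full windows do.

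The next set also holds GTTGCTA and is shown because the gene, or the gene across the interval, belongs to a list. MXD4 (chr4:2262260-2262359, minus strand) encodes a MAX-binding repressor that opposes MYC. TSPYL1 (chr6:116280018-116280117, minus strand) encodes a nucleosome assembly protein-like factor. SMC4 (chr3:160400319-160400418, plus strand), a condensin subunit, has its start beside an interval that also lies near the ciliary transport gene IFT80.
MXD4: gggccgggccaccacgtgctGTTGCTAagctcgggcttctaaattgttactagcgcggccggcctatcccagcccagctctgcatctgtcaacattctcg
TSPYL1: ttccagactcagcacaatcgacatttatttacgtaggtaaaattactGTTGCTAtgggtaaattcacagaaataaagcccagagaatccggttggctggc
SMC4: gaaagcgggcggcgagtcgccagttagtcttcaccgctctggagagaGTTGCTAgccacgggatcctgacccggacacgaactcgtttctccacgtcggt

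The SMC4 stretch ends before the interval begins, so its match lies outside the interval.

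The last set carries the variant GTTGCCA. RCL1 (chr9:4792694-4792793, plus strand) encodes a factor in ribosomal RNA processing and CDKN2D (chr19:10569130-10569229, minus strand) a CDK4 and CDK6 inhibitor.
RCL1: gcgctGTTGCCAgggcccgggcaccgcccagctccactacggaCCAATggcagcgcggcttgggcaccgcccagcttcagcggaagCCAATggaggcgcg
CDKN2D: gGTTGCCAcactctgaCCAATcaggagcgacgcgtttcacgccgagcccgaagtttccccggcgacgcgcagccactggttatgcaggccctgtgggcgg

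Both GTTGCCA stretches also hold CCAAT. In all, 5 of the 12 stretches had a CCAAT match within their 100 bases. A match to these letters is a description of the sequence and does not show that RFX7 or NF-Y was bound to it.

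Of the 282 Nutlin-only intervals, 101 (35.8%, 95% Wilson interval 30.4 to 41.6%) overlapped a promoter window, and the nearest window was taken for each, giving 99 different windows. Windows under Nutlin-only intervals are counted per interval, so a window taken for neighbouring intervals counts for each of them. All intervals given here as low to high are 95% Wilson intervals and cover only the number of rows counted. GTTGCTA was present in 25 of the 101 windows (24.8%, 17.4 to 34.0%), against 2.85% of all 35116 promoter windows. Either GTTGCTA or the C-form GTTGCCA was present in 33 (32.7%, 24.3 to 42.3%), against 6.75%. GTTGCC was present in 30 (29.7%, 21.7 to 39.2%), against 12.2% of all windows. GTTGCCA, the longer form of that arm, was found in 8 (7.92%, 4.07 to 14.9%), against 4.08%. The shared core GTTGC was present in 65 (64.4%, 54.6 to 73.0%), against 33.6%, and GTTGCT in 41 (40.6%), against 12.8%. These motifs overlap, since each GTTGCTA match is also a GTTGCT and a GTTGC match and each GTTGCCA match is also a GTTGCC match.

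CCAAT was the most frequent element searched. It was present in 77 of the 101 windows (76.2%, 67.1 to 83.5%), against 34.6% of all windows. At 2 or more places it was found in 50 (49.5%, 40.0 to 59.1%), against 10.8%. The windows of RBM15-AS1, BMAL1 and PPP2R5D, which were picked for their number of matches, each held CCAAT at 6 places and no GTTGC. The core GTTGC and CCAAT shared a window in 46 of 101 (45.5%, 36.2 to 55.2%), against 12.4%, and 5 windows held neither. Of the 77 windows with CCAAT, the match nearest the midpoint of the interval lay inside the interval in 65, and for GTTGCTA this held in 22 of 25. The median distance from the midpoint of the interval to the nearest match was 52.5 bp for CCAAT, 63 bp for GTTGCTA and 81.5 bp for GTTGCC.

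The windows under Nutlin-only intervals differed in base composition from promoter windows at large, and 88 of the 101 (87.1%) were CpG-rich (at least 50% GC and an observed to expected CpG ratio of at least 0.6), against 46.9% of all windows. Within CpG-rich windows alone, GTTGCTA was present in 26.1% of those under Nutlin-only intervals (18.1 to 36.2%) and in 2.48% of all. The corresponding shares were 30.7% and 12.7% for GTTGCC, and 77.3% and 31.9% for CCAAT. The GC box GGGCGG, which binds SP-family factors, was in 70.3% of the 101 windows against 45% of all, but in 73.9% against 78.3% once only CpG-rich windows were compared. The cyclic AMP response element TGACGTCA was found in 2 windows (1.98%, 0.545 to 6.93%), against 1.85% of all.

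**Figure D1:**
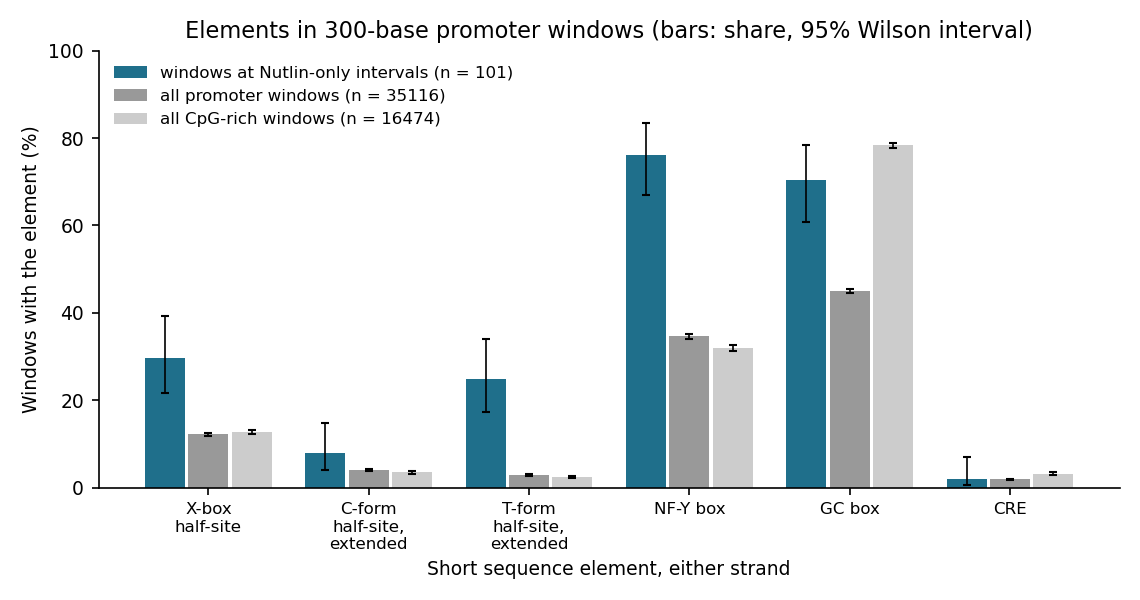
Share of 300-base promoter windows (vertical axis, percent) that hold each short element on either strand. Bars are for 101 windows under Nutlin-only intervals, counted per interval, all 35116 windows and the CpG-rich ones among these. Error bars are 95% Wilson intervals. The X-box arm GTTGCC, its extended C-form GTTGCCA and T-form GTTGCTA, the NF-Y box CCAAT, the GC box and the cyclic AMP response element (CRE) run from left to right; the T-form stands at 24.8% under Nutlin-only intervals and the NF-Y box at 76.2%, while the GC box under these intervals lies below its share in CpG-rich windows.

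When the 101 intervals were divided by rank into the upper 50 and the lower 51, GTTGCTA was present in 28% and 21.6%, GTTGCC in 30% and 29.4%, and CCAAT in 82% and 70.6%, with Wilson intervals that overlapped for each element. Among the 25 highest-ranked intervals, 14 had a window and 6 of the 14 held GTTGCTA. Lower-ranked intervals with GTTGCTA in the window included those of CDK4, a cyclin D-dependent kinase (rank 86), MARK3, a polarity kinase (rank 86), DCP2, the mRNA decapping enzyme (rank 144), and XRCC1, a scaffold of single-strand break repair (rank 181). These genes were chosen for mention after their values were seen. COQ10B, whose product binds coenzyme Q, had 2 intervals (ranks 134 and 206) over 1 window with GTTGCTA, and its paralogue COQ10A (rank 58) had GTTGCCA. Of the shared intervals only 8 had a window, of which 1 held GTTGCTA, 6 held GTTGCT and 7 held CCAAT. The arm GTTGCC was in 0 of these 8, which allows a share of up to 37.5%, so no difference from the Nutlin-only intervals was detectable.

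The Nutlin-only intervals were narrower than the shared ones. Their median width was 324.5 bp (range 50 to 1480 bp), with the middle 50% between 214.5 and 473.5 bp. Of the 282, 61 (21.6%) were at least 500 bp wide, 10 (3.55%) at least 1 kb and 60 (21.3%) under 200 bp. Shared intervals had a median width of 1120.5 bp (642 to 2618 bp). Rows of the DMSO list had a median width of 194 bp, below that of the Nutlin-only intervals. The authors' fold enrichment of the Nutlin-only intervals had a median of 4.63 (2.42 to 11.2), and their −log10 q, the column used for ranking, a median of 9.65 (1.53 to 57.6). For the shared intervals these medians were 8.26 and 35.1. Width, fold enrichment and q come from the same list as the selection and are given as a description.

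**Figure D2:**
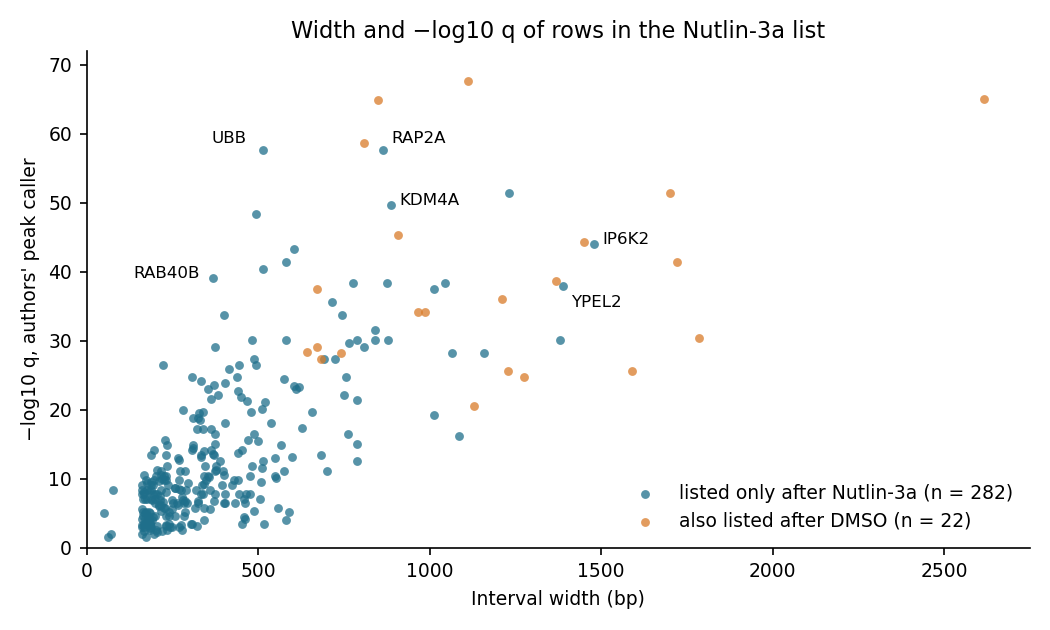
Width in bp (horizontal axis) and the authors' −log10 q (vertical axis) of each row in the Nutlin-3a list; colours separate the 282 Nutlin-only rows from the 22 shared rows. Nutlin-only rows fill the narrow, low end from 50 bp up and reach a −log10 q of 57.6 at 863 bp for RAP2A, while all shared rows are 642 bp or wider.

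Rank 1 is the highest −log10 q of the 304 rows, and tied rows have the same rank. Nutlin-only intervals held ranks 5 to 304. They made up 5 of the first 10 rows and 32 of the first 50, a smaller share than their 282 of all 304 rows. The 22 shared rows held ranks from 1 to 78. Fold and q were both identical to those of at least 1 other row for 94 of the 282 intervals (33.3%), and the largest such set had 9 rows, so the order within a tie carries no information. The widest intervals lay near IP6K2 (1480 bp), YPEL2 (1388 bp), CD83 (1381 bp), AKT1S1 (1231 bp) and TNS1 (1159 bp). The narrowest lay near EMC9 (50 bp), PLPP4 (61 bp), HLA-F (70 bp) and RMND5A (76 bp), followed by 7 intervals tied at 160 bp, among them that of TNRC6A. The RMND5A interval still had a −log10 q of 8.41. At the low end of the ranking were the intervals near HLA-F (−log10 q 2.02), SMAD7 and ATXN7L1 (both 1.99), SSTR1 (1.55) and PLPP4 (1.53).

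Distances are from the midpoint of an interval, because the lists give no summit. They run to the nearest annotated start of a protein-coding gene, or to the nearer boundary of a gene for which no start was listed. Of the 282 intervals, 137 (48.6%, 42.8 to 54.4%) lay within 1 kb of such a point, 88 (31.2%) within 250 bp and 42 (14.9%) within 100 bp. Another 97 (34.4%) were over 5 kb away and 46 (16.3%) over 50 kb. The midpoint was inside a gene, between its boundaries, for 135 (47.9%). Of the shared intervals, 7 of 22 (31.8%, 16.4 to 52.7%) lay within 1 kb, and the intervals of both shares overlap.

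For 111 of the 137 intervals the nearest point was a listed start, so that the side of the interval was known. The midpoint was upstream in 65 (58.6%, 49.3 to 67.3%) and downstream in 46 (41.4%). The median position was -56 bp, and the middle 50% ran from -194.25 to 102 bp. In the distribution of positions around the start, most midpoints fall within 250 bp on either side.

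**Figure D3:**
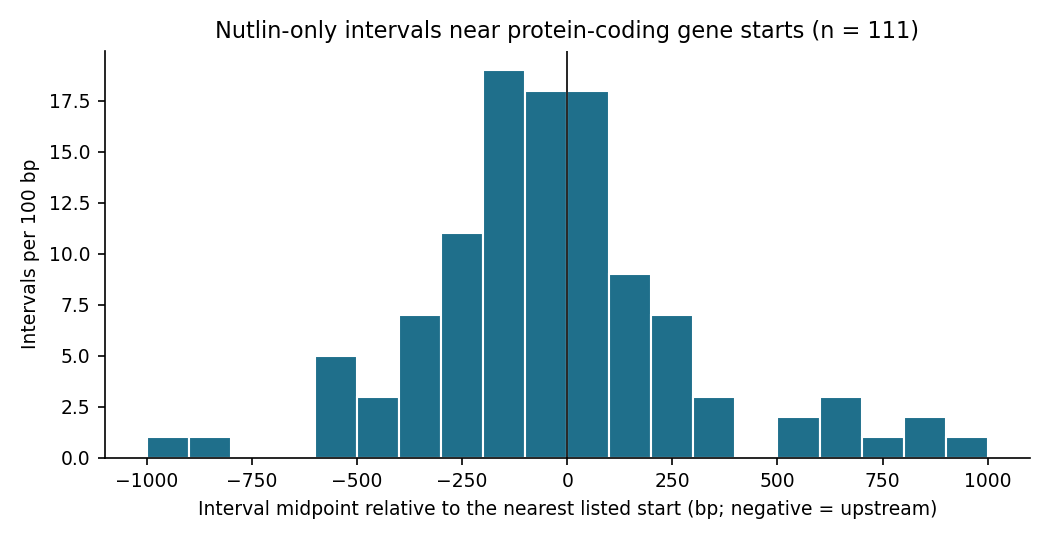
Number of Nutlin-only intervals per 100 bp (vertical axis) by the position of the midpoint relative to the nearest listed start in bp (horizontal axis, negative upstream), for the 111 intervals with a listed start within 1 kb. The intervals pile up around the start, with a median of -56 bp.

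Of the 25 highest-ranked intervals, 18 lay within 1 kb of a protein-coding gene start or boundary and 5 over 5 kb away. RAP2A, which encodes a RAS-like small GTPase, and UBB, a gene for polyubiquitin, tied at rank 5 with a −log10 q of 57.6 and a fold of 11.2. The RAP2A interval (chromosome 13, 97432606 to 97433468) lay 1132 bp upstream of the start. The midpoint of the UBB interval (chromosome 17, 16380604 to 16381117) lay inside the gene, 81.5 bp from the nearer boundary and 429.5 bp upstream of the nearest listed start. AKT1S1 encodes PRAS40, an AKT substrate that inhibits the kinase complex mTORC1, and its interval (chromosome 19, 49869022 to 49870252) had rank 7 and a fold of 10.6. No start was listed for AKT1S1. The midpoint lay inside the gene, 604 bp from a boundary that may be either end, so it cannot be called a promoter site. KDM4A, a histone H3 lysine demethylase, had rank 9 with an interval 222.5 bp upstream of its start (chromosome 1, 43649484 to 43650369).

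IP6K2, an inositol hexakisphosphate kinase, had rank 13 and a fold of 9.15, and RCL1 followed at rank 14 with a fold of 9.43. The interval of TCAIM, a mitochondrial protein gene, had rank 15. KLF9, a Krüppel-like transcription factor, had rank 17 and a second interval at rank 156. RAB40B, a Rab-like GTPase with a SOCS box, had rank 18 and an interval centred 17 bp upstream of the start. CNOT1, the scaffold of the CCR4-NOT deadenylase, stood at rank 20, and TOB1, an antiproliferative protein that recruits that deadenylase, at rank 34. TOP2B, DNA topoisomerase II beta, had rank 27 with the midpoint 5 bp from the start. SENP2, a SUMO protease, had rank 32, YPEL2 rank 23 and TTC9C rank 30. CKS2, a CDK-binding subunit, the chromatin remodeller gene ATRX, TSPYL2 and TP53INP1, a p53-inducible gene of autophagy and cell death, were tied at rank 35.

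The distant intervals among these 25 were those nearest to SESN3 (21758.5 bp upstream, rank 20), MAF (170311 bp, rank 20), ZNF157 (8582 bp, rank 24), LAPTM5 (66845 bp, rank 30) and CD83 (93198 bp, rank 35). Distance to protein-coding genes does not describe all of them. The interval assigned to MAF lay 516 bp from the start of MAFTRR, and the one assigned to LAPTM5 lay 33 bp from the start of LINC01778.

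This held for others beyond the first 25. Of the 97 intervals over 5 kb from a protein-coding gene, 18 (18.6%, 12.1 to 27.4%) had another annotated gene within 1 kb. Of the 9 shared intervals that far away, 3 did (33.3%, 12.1 to 64.6%). For 12 of the 18 Nutlin-only intervals it was a long noncoding RNA, and for the others a pseudogene or a vault RNA gene. GPR158-AS1 lay 286.5 bp away (rank 41), CHASERR, the noncoding RNA next to the chromatin remodeller gene CHD2, lay 257.5 bp away (rank 120), and EPCAM-DT lay 83.5 bp away (rank 168). VTRNA1-3, a vault RNA gene, lay 121.5 bp away (rank 156). Counting every annotated gene, 167 intervals (59.2%, 53.4 to 64.8%) had one within 1 kb. The interval farthest from a protein-coding gene was 2008544 bp from PIK3C3 and had rank 52. The next were 1409215 bp from PLA2G4A (rank 64), 1000981.5 bp from CNTNAP5 (rank 270), 939574.5 bp from LOC124904970 (rank 292) and 766927.5 bp from LOC107987004 (rank 241).

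Some intervals had genes on both sides. The midpoints of 10 of the 282 (3.55%) lay within 1 kb of points of 2 protein-coding genes, and in 7 of the 10 these genes started on opposite strands. These pairs were TTC9C and HNRNPUL2 (rank 30), SON and GART (rank 75), ZNF490 and ZNF791 (rank 81), DSE and TSPYL1 (rank 116), RPS6KA5 and DGLUCY (rank 135), MCM7 and AP4M1 (rank 135), and RIBC1 and SMC1A (rank 170). SON is a splicing cofactor, MCM7 a subunit of the replicative helicase and SMC1A a cohesin subunit. The interval cannot assign such a promoter to one gene of the pair.

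Genes were next counted by lists, each gene being counted when a Nutlin-only midpoint lay within 5 kb of one of its starts or boundaries. By that rule 192 of 20037 protein-coding genes (0.958%) had such an interval, and 137 (0.684%) had one within 1 kb. A shared midpoint lay within 5 kb of 16 genes (0.0799%). The 17 lists held 229 different genes, of which 35 had an interval. The lists and the genes in them were chosen with earlier results of these data known, so these counts describe the intervals and are not independent evidence about the lists.

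All 13 genes of a list of published RFX7 targets had a Nutlin-only interval, beside 0.958% of all protein-coding genes. For 11 it lay within 1 kb of a start or boundary, beside 0.684% of all. RFX7 targets were published from the study these libraries belong to, so the list is not independent of the data. For 9 of the 13 the interval stood apart from any shared interval, at ranks 34 to 135. They were TOB1 (rank 34), TP53INP1 and TSPYL2 (both rank 35), PDCD4, an inhibitor of translation initiation (rank 48), ABAT, the enzyme that degrades the transmitter GABA (rank 85), JUNB (rank 92), MXD4 (rank 104), TSPYL1 (rank 116) and REV3L, the catalytic subunit of DNA polymerase zeta (rank 135). The ABAT interval was 1012 bp wide and centred 174.5 bp from the nearest start or boundary. The JUNB interval was 364 bp wide, outside the gene and 460.5 bp from its nearer boundary. The listed start nearest to it was that of HOOK2, 1425.5 bp away, so no listed JUNB start lay within 1 kb.

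The other 4 published targets, PIK3IP1, PIK3R3, PNRC1 and CCNG2, had a shared interval within 5 kb as well. Their Nutlin-only intervals lay 60 to 227 bp from that shared interval and ranked low. PIK3R3, a regulatory subunit of PI3-kinase, and CCNG2, an atypical cyclin, were both at rank 193, PIK3IP1, a PI3-kinase inhibitor, was at rank 284, and PNRC1, a nuclear receptor coactivator, at rank 288. For these genes the rows listed after Nutlin-3a alone thus lay beside a site listed under both treatments. Their widths were 332 bp at CCNG2, 321 bp at PIK3IP1, 193 bp at PIK3R3 and 189 bp at PNRC1.

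Of 32 genes of PI3K, AKT and mTOR signalling, 5 had a Nutlin-only interval (15.6%, 6.86 to 31.8%), beside 0.958% of all genes. These were AKT1S1 (ranks 7 and 245), SESN3, a stress-induced inhibitor of mTORC1 signalling (rank 108, in addition to the distant interval at rank 20), PIK3R3, PIK3IP1 and DDIT4, another stress-induced inhibitor of mTORC1 (rank 299). The DDIT4 interval was 205 bp from a shared interval. The list thus held 2 genes, AKT1S1 and SESN3, whose Nutlin-only intervals were not beside a shared one.

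Of 20 genes known as direct p53 targets, 2 had a Nutlin-only interval within 5 kb (10%, 2.79 to 30.1%), beside 0.958% of all genes. BBC3, which encodes the proapoptotic protein PUMA, had one 2158 bp from its nearest start or boundary (rank 128). GADD45A, a growth arrest gene, had one at 39 bp (rank 278). A second BBC3 row and the row nearest to BTG2, an antiproliferative p53 target, lay 10380 bp and 20678.5 bp from those genes, each beside a shared interval.

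The list of cyclins and CDK inhibitors gave 4 of 19 (21.1%, 8.51 to 43.3%), beside 0.958% of all genes, the share that also applies to the next 2 lists. CCND1, encoding cyclin D1, had 4 intervals (ranks 141 to 245) and CCND2 had 2 (ranks 232 and 291), of which the first was 78 bp from a shared interval. CDKN2D had 1 at rank 156, and CCNG2 is described above. The MYC, MAX and MXD network gave 2 of 13, MXD4 and the MYC antagonist MXI1 (rank 99). AP-1 subunits gave 3 of 9, JUNB, JUN (rank 244) and FOSL2 (rank 280). Of these JUNB alone had its interval within 1 kb, counted from a gene boundary and not from a listed start.

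The remaining lists gave few genes each, and their counts stand beside the same 0.958% of all genes. In the ubiquitin, VCP and proteasome list of 42 genes, UBB and the proteasome activator genes PSME1 and PSME2 were among those with an interval. The last 2 had the same 50-bp interval (rank 252), which was closest to EMC9. The BCL2 family gave 2 of 16, BBC3 and the survival gene BCL2L1 (rank 282, 11.5 bp from its nearest start or boundary). The lysine demethylases gave 2 of 16, KDM4A and KDM6B, the latter 4921 bp away (rank 145). The translesion polymerases gave REV3L alone of 6, and the TOB and BTG family TOB1 alone of 6. The TSPYL family gave TSPYL1 and TSPYL2 of 5, and the PNRC coactivators PNRC1 of 2. REV3L, TOB1, TSPYL1, TSPYL2 and PNRC1 are also on the list of published targets. Among 20 ciliary genes, a class regulated by other RFX factors, TTC8 (54.5 bp, rank 55) and IFT80 (1339.5 bp, rank 293) had an interval. Of 6 Schlafen genes, SLFN12 and SLFN13 had 1 interval between them (rank 193). None of the 8 RFX family genes had a Nutlin-only interval within 5 kb, which allows a share of up to 37.5%. None of the 13 MHC class II and RFX5 complex genes had one, which allows up to 23.1%, although RFX5 had a shared interval. With such an interval at 0.958% of all protein-coding genes, finding none in lists this short is no result about them.

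Neighbouring rows showed how far the 282 intervals represent separate loci. Another row of the Nutlin-3a list lay within 1 kb, edge to edge, of 67 of them (23.8%, 19.2 to 29.1%). The gap was a median of 122 bp and at least 54 bp. Joining rows at gaps of up to 1 kb turned the list into 258 loci, of which 246 held a Nutlin-only row and 236 held Nutlin-only rows alone. In 31 loci with a Nutlin-only row there were at least 2 rows, and in 8 at least 3.

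The largest group lay in TNRC18 on chromosome 7, with 6 rows over 3745 bp and −log10 q values of 2.56 to 9.55. RHOB had 5 rows over 2946 bp, from 60.5 bp upstream of its start (rank 132) to 2548 bp downstream (rank 259). CCND1 had 4 rows over 2629 bp and PMEPA1, a TGF-beta-induced gene, 4 over 2039 bp. In the groups at CNOT1 and CKS2, with 3 rows each, 1 row was far stronger than the others. The CNOT1 rows ran from a −log10 q of 38.4 to 3.52 and the CKS2 rows from 30.0 to 2.99. ATF7IP, a cofactor of the H3K9 methyltransferase SETDB1, also had 3 rows, with values of 4.16 to 21.5. The 3 rows of the group nearest to PARP11 comprised 1 shared row of 2618 bp and 2 Nutlin-only rows beside it.

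**Figure D4:**
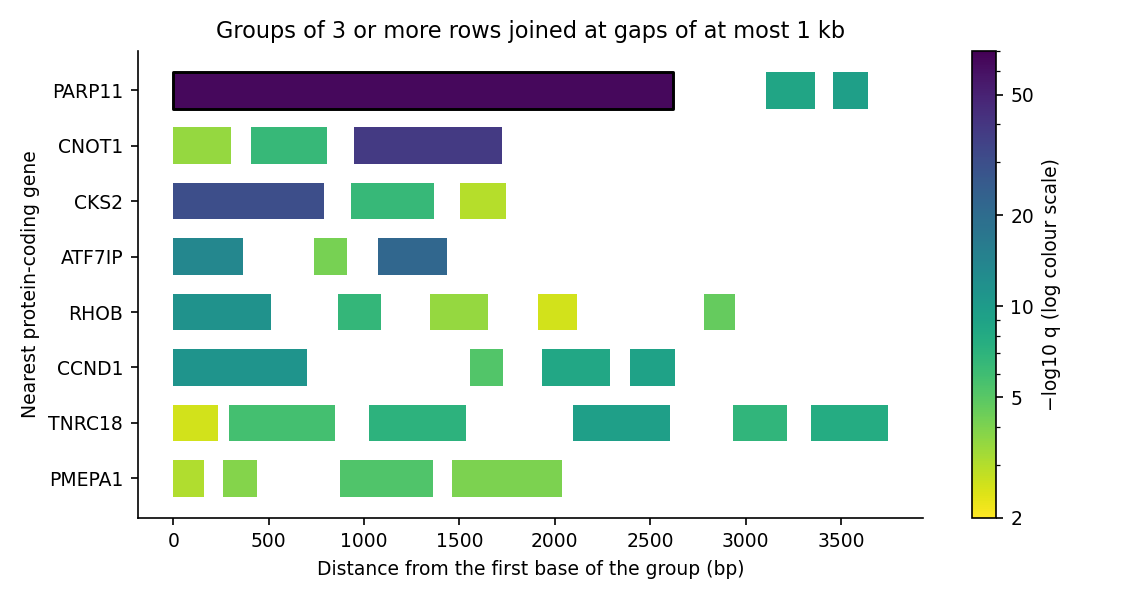
Groups of 3 or more rows joined at gaps of at most 1 kb, drawn to scale as bars by distance in bp from the first base of the group (horizontal axis) and named by the nearest protein-coding gene (vertical axis); colour gives −log10 q on a log scale and a black outline marks a shared row. TNRC18 has the most rows (6), and at CNOT1 and CKS2 a single row carries the high value.

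A shared row lay within 1 kb of 11 Nutlin-only intervals (3.90%), in 10 loci. These 11 had a median width of 205 bp, and the best of them had rank 165. They lay nearest to PARP11 (2 rows), PIK3R3, BBC3, CCNG2, ATP5IF1, CCND2, PIK3IP1, PNRC1, BTG2 and DDIT4. A DMSO row lay within 1 kb of 5 of the 282 (1.77%, 0.760 to 4.08%), within 10 kb of 12 and within 1 Mb of 26 (9.22%). The closest to breaking the rule were the intervals at CCNG2, 165 bp from a DMSO row, PNRC1 at 466 bp, ATP5IF1 at 670 bp, PIK3R3 at 771 bp and DDIT4 at 933 bp. Among shared intervals the smallest overlaps were 160 bp near DIP2A, 163 bp near VCP and near AZIN1, and 172 bp near BBC3. No shared interval was thus close to the limit of 1 base. The median distance to the nearest DMSO row was 5767698 bp over 265 Nutlin-only intervals, since the other 17 lay on chromosomes without a DMSO row.

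Intervals of lower rank were narrower, and location and neighbours also varied with rank, though not in a steady order. Divided into quartiles by −log10 q from highest to lowest (69, 72, 70 and 71 intervals), the median widths were 575, 356, 258.5 and 205 bp. The share within 1 kb of a protein-coding gene start or boundary was 60.9% (49.1 to 71.5%) in the highest quartile, 55.6% in the second, 38.6% in the next and 39.4% (28.9 to 51.1%) in the lowest. The share with another row within 1 kb was 17.4% (10.2 to 28.0%) in the highest quartile, 11.1% in the second, 28.6% in the next and 38.0% (27.6 to 49.7%) in the lowest. For both shares the Wilson intervals of the highest and lowest quartiles overlapped at their edges. The share over 50 kb from a gene was 14.5, 13.9, 20 and 16.9%. The quartiles are ranges of one column of the selecting list, and they were not tested against each other.

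**Figure D5:**
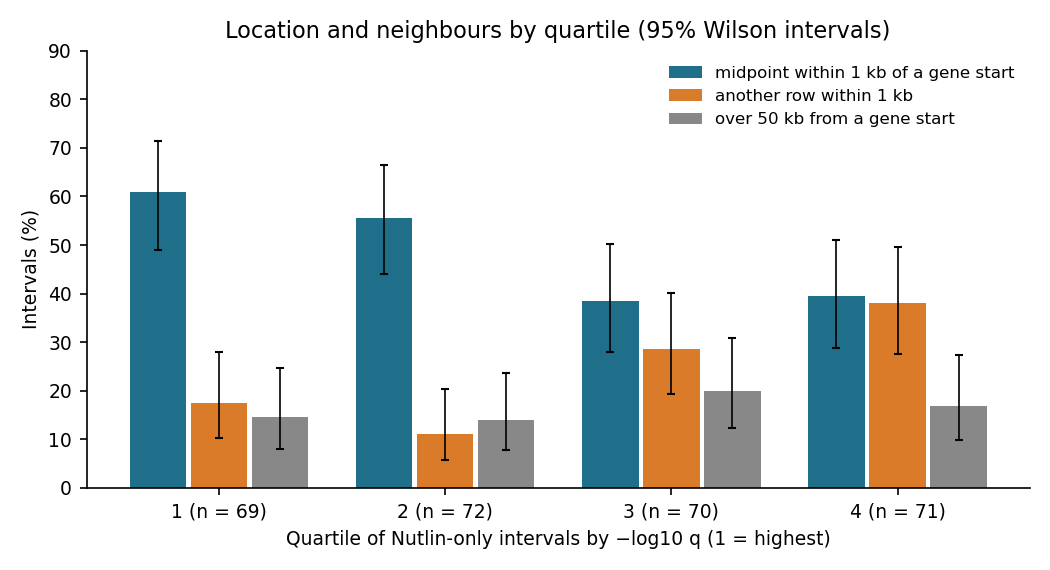
Percent of Nutlin-only intervals (vertical axis, bars with 95% Wilson intervals) within 1 kb of a gene start or boundary, with a neighbouring row within 1 kb, and over 50 kb from a gene, for quartiles by −log10 q from the highest to the lowest (horizontal axis). The share near a start is 60.9% in the highest quartile and 39.4% in the lowest, and the share with a neighbour is 17.4% and 38.0%.

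The intervals lay on 23 chromosomes, most on chromosome 12 (26), followed by chromosomes 1 and 2 (22 each) and 11 and 17 (19 each), with 2 on chromosome 13. Several loci thus supply more than 1 row, and the counts above are of rows unless they are given for genes or loci.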

How the data were processed

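Chromatin immunoprecipitation sequencing with an antibody to RFX7 was deposited as 1 list of intervals per treatment, without a header. Each row holds the authors' fold enrichment (a ratio), a −log10 p that was not used, and −log10 q as deposited, and a deposited score that repeats the −log10 q, 10-fold and cut to whole numbers, and was not used. The submitters' processing notes name hg38, MACS2 2.2.7.1, SAMtools 1.10, Picard, bedtools 2.29.2, Trimmomatic 0.39, cutadapt 2.10, bcl2fastq 2.20.0.422 and FastQC 0.11.9, without role or order. The aligner, the settings and how replicates were merged are not given in the sources used here. Inputs and single replicates were not analysed here. The lists carry no read depth, on which the calling of intervals depends.

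Starts were converted to 1-based positions. Intervals were compared by at least 1 shared base. Genes came from RefSeq GRCh38.p14 (20037 protein-coding genes, 15843 with a listed start), the same assembly as hg38. Promoter windows were searched on both strands. Shares carry 95% Wilson intervals, and a share of 0 is limited by 3 counts. No test was run, since each treatment has 1 list. The intervals and gene lists were chosen with earlier results of these data known. CCAAT, the GC box, the cyclic AMP response element, the shorter form GTTGCT and the CpG-rich windows were added after seeing the data.

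Named were the genes nearest the 25 highest-ranked, 5 widest, 5 narrowest, 5 lowest-ranked and 5 farthest intervals, listed genes within 5 kb, groups of at least 3 rows, rows within 1 kb of a shared or DMSO row and intervals at 2 genes. One gene covered by this rule is not reported here. Alternatives changed the −log10 q minimum, overlap, joining, distance, gene set and motif. Python 3.11.15, pandas 2.3.3, NumPy 2.4.6, SciPy 1.17.1 and matplotlib 3.10.9 were used, and the counting functions were tested on simulated data.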

Additional observations from a re-analysis of the deposited data

How the results depend on the processing

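Across 6 results, 37 alternative values were computed, of which 25 stayed within 1.5 times a count or width or within the Wilson interval of a share, and 12 moved beyond it. At a minimum −log10 q of 10, the number of intervals was 131, those with a neighbouring row within 1 kb made up 13.7%, those within 1 kb of a gene start or boundary 58.0%, and the listed genes numbered 19. From the median −log10 q upward these were 130, 13.8% and 58.5% for the first 3. The location share was 40.4% within 500 bp, 65.6% within 5 kb and 59.2% with all annotated genes. The core GTTGC was in 64.4% of windows, and 22 listed genes had an interval within 1 kb. Where sharing required 50% overlap of both intervals, 302 of the 304 rows were Nutlin-only. That count stayed within 1.5 times, but it left almost no shared rows for comparison. The widths kept within 1.5 times under every alternative run. The 7 alternatives added after seeing the data, among them leaving out rows within 1 kb of a shared row and using both boundaries of every gene, all stayed within these limits. No paired analysis was possible because the replicates of a treatment came merged, in columns without replicate numbers, and for the same reason no replicate could be left out. Depth is unknown, and whether intervals missing from the DMSO list lay below its detection limit was not tested.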
